A study of Mus musculus with 16 samples.

Results

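Astrocyte identity genes are a set of 10 genes by which astrocytes are commonly recognised, Gfap, Aqp4, S100b, Aldh1l1, Slc1a2, Slc1a3, Gja1, Gjb6, Fgfr3 and Glul. They were listed by symbol, with no threshold on their values but with earlier results of these data known, and all 10 were found among the 24946 genes of both expression tables. Expression was measured by RNA sequencing in primary cultures of neural stem cells (NSCs) from the ventricular-subventricular zone (V-SVZ) of mouse pups injected as neonates, in 4 Tsc2 wt/wt (wild-type) and 4 Tsc2 mut/mut (mutant) cultures. From each culture total RNA and polyribosomal RNA, the RNA of the heaviest fractions of a sucrose gradient, were sequenced separately, giving 4 groups of 4 libraries. All cultures were grown with FGF-basic, EGF and B-27 without vitamin A, were passaged once, and were treated with cycloheximide for 15 min before lysis. The pups came from crosses of the Nes-cre/ERT2 transgene, in which the Nestin promoter drives a Cre that tamoxifen activates, with a ROSA26 CAG-tdTomato reporter and, for mutant cultures, the conditional Tsc2tm1.1Mjg allele, and were killed a week after tamoxifen. Recombination is therefore limited to cells that had active Nestin-Cre, and whether every wild-type pup carried that Cre is not stated by the study. The study describes its NSC subcultures as uniformly positive for the reporter and as having lost Tsc2. Its blots of the Tsc2 protein were of the NSCs of its bulk RNA sequencing, and blots of the cultures used here are not stated. Nothing states that the cultures came from separate litters, so p-values measure the spread between these cultures.

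Astrocytes clear glutamate and potassium from the space around neurons, move water at vascular endfeet, are coupled to each other by gap junctions, and carry a cytoskeleton of intermediate filaments. The 10 genes cover these roles. GFAP is an intermediate filament protein, S100B a calcium-binding protein and AQP4 the endfoot water channel. SLC1A2 (GLT-1) and SLC1A3 (GLAST) take up glutamate and GLUL (glutamine synthetase) turns it into glutamine. ALDH1L1 is a cytosolic folate enzyme, GJA1 (connexin 43) and GJB6 (connexin 30) form gap junctions, and FGFR3 is a receptor for fibroblast growth factors. Several of them, among them Gfap, Slc1a3, Aldh1l1 and Fgfr3, are also transcribed in V-SVZ NSCs, and S100b is also found in the oligodendrocyte lineage, so in these bulk cultures more cells of a type and more RNA per cell cannot be told apart.

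The tested genes that changed did so in 1 direction in total RNA and in both directions in polyribosomal RNA. In total RNA, 5 of the 9 that could be tested were higher in mutant cultures (Gfap, Aqp4, S100b, Slc1a2 and Slc1a3) and 0 were lower, also at an unadjusted p under 0.05. In polyribosomal RNA, 4 of 9 were higher (Gfap, Aqp4, S100b and Slc1a2) and 2 were lower (Gja1 and Fgfr3). Over all genes tested, 19.7% were called higher and 20.7% lower in total RNA, and 11.7% higher and 11.9% lower in polyribosomal RNA. Here and below, called means an adjusted p under 0.05 by limma with Benjamini-Hochberg adjustment over all genes with a mean of at least 10 normalized read counts in the table, 14967 genes in total RNA and 14412 in polyribosomal RNA. Gjb6 was under that mean in both tables and had no test. Differences are on the log2(normalized read count + 1) scale, mutant minus wild-type, and the median over all tested genes was 0.01 in both tables.

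**Figure D1:**
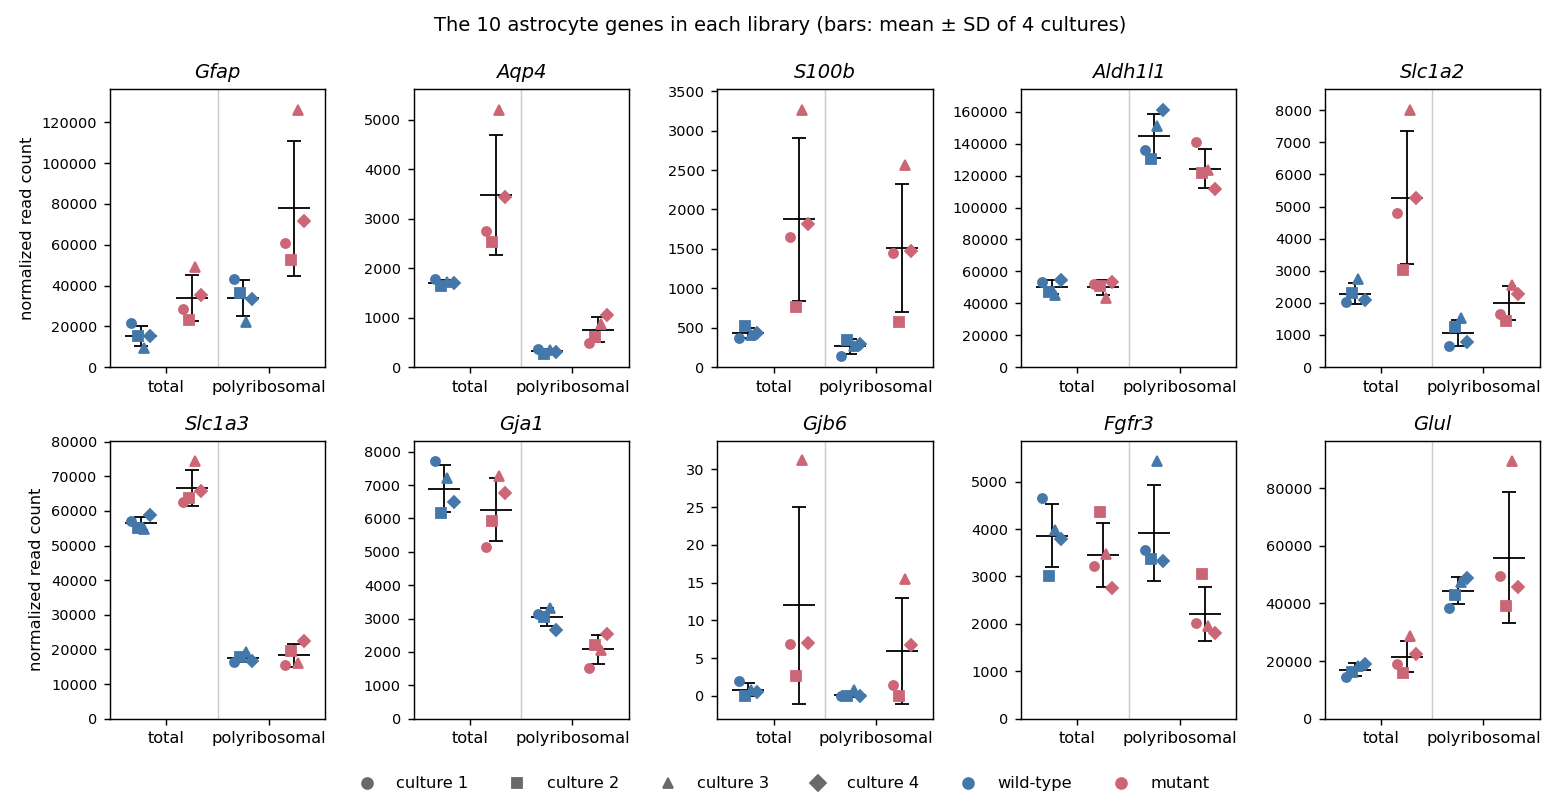
Normalized read counts of the 10 genes (linear axis, own scale per panel) in the 16 libraries, with the mean and SD of the 4 cultures of each genotype in total and in polyribosomal RNA. For Gfap, Aqp4 and S100b every mutant culture sits above every wild-type culture in both fractions, and for Gja1 and Fgfr3 every mutant culture sits below in polyribosomal RNA and the groups overlap in total RNA.

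Some properties of whole libraries differed between the genotypes and touch all results that follow. Summed over 12 oligodendrocyte markers, total RNA held 9200 to 10911 normalized read counts in wild-type and 18935 to 25796 in mutant cultures, with 1 of the 12 at 0 in wild-type culture 3, and 9 of the 10 markers tested were called higher. Summed over 12 microglial markers, wild-type cultures held 2882 to 4816 and mutant cultures 1 to 4 held 4913, 21597, 3204 and 12012. The sum of 7 choroid plexus markers was 952 to 1234 in wild-type and 1361 to 3652 in mutant cultures, and that of 7 endothelial markers 1161 to 2503 and 2570 to 4305, both highest in mutant culture 3, and 2 and 3 of the 5 markers tested in each list were called higher. Most of the endothelial sum was 1 gene, Flt1, with a mean of 1757 in wild-type and 2895 in mutant cultures. Pecam1, another endothelial marker, differed by 0.07 (adjusted p = 0.859). Of 12 neural stem cell markers 2 were higher and 2 lower in total RNA, and of 10 neuroblast and neuron markers also 2 and 2. Higher there were 5 of 7 tested oligodendrocyte precursor markers and 2 of 7 ependymal markers. For pericytes and fibroblasts 2 of 8 markers were higher and 1 lower. The part of these cell types in the results was not tested. The 20 DNA replication genes of a list made after the values were seen summed to 262339 to 319170 in wild-type and to 166174, 246084, 121219 and 212492 in mutant cultures 1 to 4. The mean log2 level of 4 Y-linked genes was 9.92 to 10.42 in wild-type cultures 1 to 3, 5.94 in wild-type culture 4, 10.15 in mutant culture 1 and 1.00 to 3.71 in the other mutant cultures, so sex composition is partly confounded with genotype. With that level as a covariate, 0 of the 9 members were called in any comparison by limma, although at an unadjusted p under 0.05 4 were higher in total RNA, 4 higher and 2 lower in polyribosomal RNA and 2 lower in efficiency. Tsc2 itself was 0.10 lower in mutant cultures in total RNA (log2, SE 0.10, adjusted p = 0.422) and fell by 0.49 in polyribosomal RNA (SE 0.15, adjusted p = 0.0389), values that sum over the whole gene and do not report on a recombined allele whose transcript may still be made.

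**Figure D2:**
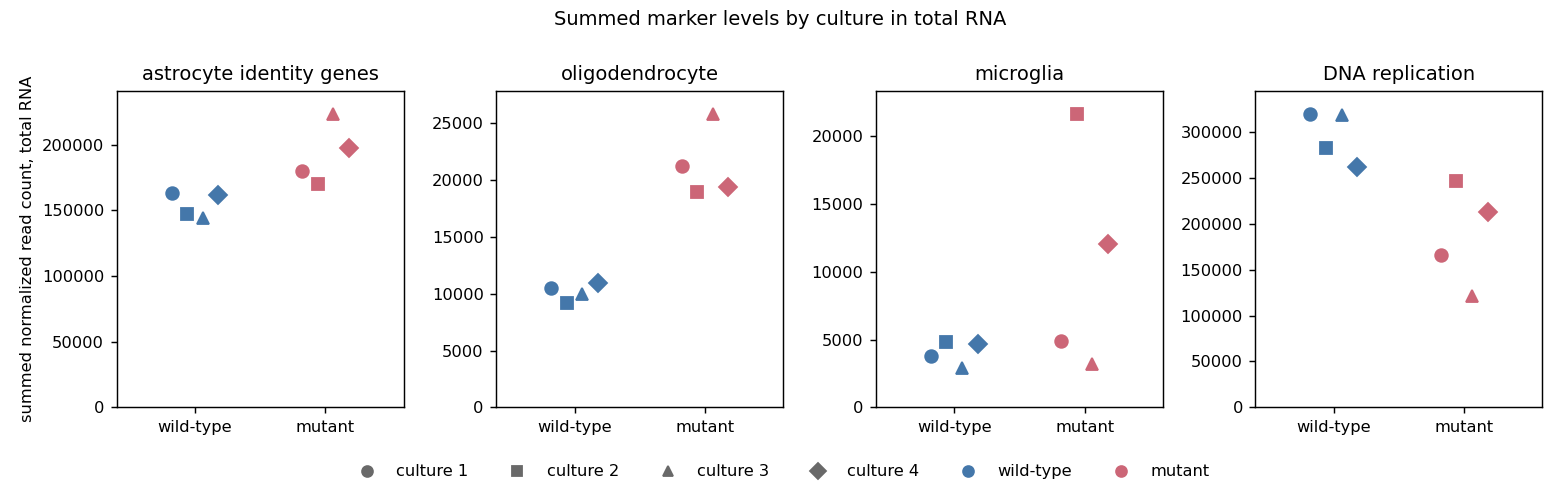
Summed normalized read counts in total RNA (linear axes from 0) of the 10 astrocyte genes, 12 oligodendrocyte markers, 12 microglial markers and 20 DNA replication genes, 1 point per culture. Mutant culture 3 has the highest astrocyte and oligodendrocyte sums and the lowest DNA replication sum, and microglial sums are high in mutant cultures 2 and 4.

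The promoters of 3 members are shown to set the gene with the largest rise (S100b), the astrocyte filament gene that rose (Gfap) and a gene that fell in polyribosomal RNA (Gja1) side by side. Each line is the 250 bases before the RefSeq transcription start (GRCm38.p6), 5′ to 3′ on the strand of the gene, with matches to a searched motif in capitals. The regions are chr10:76253586-76253835 (plus strand) for S100b, chr11:102897201-102897450 (minus strand) for Gfap and chr10:56377050-56377299 (plus strand) for Gja1.
S100b: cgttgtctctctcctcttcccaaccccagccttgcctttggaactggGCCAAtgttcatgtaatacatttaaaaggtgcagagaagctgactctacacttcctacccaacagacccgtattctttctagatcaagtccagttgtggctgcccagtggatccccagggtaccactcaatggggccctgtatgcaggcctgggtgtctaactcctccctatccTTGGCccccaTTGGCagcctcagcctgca
Gfap: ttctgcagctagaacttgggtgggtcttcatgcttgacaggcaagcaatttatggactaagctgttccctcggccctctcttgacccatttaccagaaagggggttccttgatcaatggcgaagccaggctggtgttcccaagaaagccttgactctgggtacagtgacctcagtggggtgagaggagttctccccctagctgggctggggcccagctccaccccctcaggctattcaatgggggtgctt
Gja1: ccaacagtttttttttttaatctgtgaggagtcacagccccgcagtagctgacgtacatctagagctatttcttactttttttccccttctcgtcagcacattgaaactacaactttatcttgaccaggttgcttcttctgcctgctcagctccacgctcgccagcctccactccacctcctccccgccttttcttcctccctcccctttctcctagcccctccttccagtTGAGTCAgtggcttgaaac

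In all, 5 motifs were searched on both strands, TTCNNNGAA (STAT), TTGGC (NFI), GGAATG (TEAD), TGANTCA (AP-1) and CACGTG (E-box). The S100b window held 3 NFI matches, beginning at positions -203, -29 and -19 from the start. The Gja1 window held an AP-1 match at -19 to -13. The Gfap window held none of the 5. Of the members whose promoter is not shown, Slc1a3 had a STAT match at -96 to -88, Slc1a2 had 1 NFI match and Glul 2, and Aldh1l1, Gjb6 and Fgfr3 had none of the 5. The Slc1a2 window (chr2:102706188-102706437) precedes a start inside the gene, which itself begins at 102658239. For Aqp4 no promoter was searched. Among 32851 mouse promoters of this length, 41.5% held the NFI motif, 7.02% the STAT motif and 6.75% the AP-1 motif, so the NFI matches are of a common kind, and a match describes letters only.

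Gfap (chromosome 11, 102887336 to 102897200, minus strand) held 21502, 15234, 9309 and 15004 normalized read counts in total RNA of wild-type cultures 1 to 4, and 28706, 22958, 49320 and 35199 in mutant cultures 1 to 4. In polyribosomal RNA it held 43258, 36550, 22285 and 33361 in wild-type and 61030, 52353, 126208 and 71743 in mutant cultures. Every mutant culture was above every wild-type culture in both fractions, with mutant culture 3 highest in each. The rise was the same size in both fractions, 1.16 in total RNA (SE 0.27, adjusted p = 0.00898) and 1.16 in polyribosomal RNA (SE 0.27, adjusted p = 0.0159). Leaving out any 1 library kept the calls, with adjusted p from 0.00411 to 0.0262 in total RNA. Without mutant cultures 1 and 3, where the DNA replication genes were lowest, the adjusted p was 0.0712 in total and 0.0514 in polyribosomal RNA, at differences of 0.96 and 0.90.

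S100b (chromosome 10, 76253836 to 76261319, plus strand) changed most of the 9. In total RNA it held 372, 527, 405 and 428 normalized read counts in wild-type and 1651, 762, 3266 and 1816 in mutant cultures 1 to 4, a mean of 433 ± 66.7 against 1874 ± 1037 (SD, n = 4). In polyribosomal RNA the wild-type cultures held 135, 346, 272 and 292 and the mutant cultures 1444, 572, 2559 and 1478. Again no wild-type culture reached the lowest mutant culture. The difference was 1.94 in total RNA (SE 0.35, adjusted p = 0.00401) and 2.42 in polyribosomal RNA (SE 0.44, adjusted p = 0.00644). Of the 20 alternatives tried in each fraction, the Y-linked covariate was the one under which the call was lost (adjusted p = 0.0534 and 0.0835). The oligodendrocyte marker sum was higher in the same cultures and also highest in mutant culture 3, and its part in the S100b result was not tested.

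Aqp4 varied least of the 10 genes between wild-type cultures in total RNA, with 1772, 1641, 1717 and 1691 normalized read counts, a coefficient of variation of 3.21%. Mutant cultures held 2754, 2520, 5203 and 3433. In polyribosomal RNA the values were 364, 262, 354 and 310 in wild-type and 486, 618, 866 and 1046 in mutant cultures. All mutant cultures were above all wild-type cultures in both fractions. Aqp4 rose by 0.97 in total RNA (SE 0.19, adjusted p = 0.00517) and by 1.17 in polyribosomal RNA (SE 0.23, adjusted p = 0.0061), and lost both calls only with the Y-linked covariate among the 20 alternatives.

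The glutamate handling members differed from each other. Slc1a2 (chromosome 2, plus strand) held 2020, 2311, 2732 and 2089 normalized read counts in total RNA of wild-type and 4809, 3028, 8014 and 5260 in mutant cultures, with no overlap, a rise of 1.13 (SE 0.24, adjusted p = 0.00678). In polyribosomal RNA the wild-type cultures held 668, 1256, 1525 and 787 and the mutant cultures 1658, 1425, 2560 and 2283. There mutant culture 2 fell inside the wild-type range, the difference was 0.94 (SE 0.27, adjusted p = 0.027), and the call was lost without any 1 of wild-type cultures 1 and 4 and mutant cultures 3 and 4, with an adjusted p of up to 0.0718. An antisense gene, Gm13872, shares 166 exonic bases with Slc1a2, and the library kit keeps no strand, so the shared reads could belong to either gene.

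Slc1a3 (chromosome 15, 8634124 to 8710807, minus strand) was already among the most abundant transcripts, at 54778 to 58724 normalized read counts in total RNA of wild-type cultures. Mutant cultures held 62684, 63820, 74375 and 65816, all above the wild-type range. The rise was small, 0.24 (SE 0.08, adjusted p = 0.0362). It was lost in 12 of 20 alternatives, among them 7 of the 8 that leave out 1 library, with an adjusted p of up to 0.0926 over those 8. In polyribosomal RNA the groups overlapped, with 16416 to 19258 in wild-type and 15350 to 22295 in mutant cultures, and the difference of 0.05 had a 95% interval from -0.25 to 0.34 (adjusted p = 0.821). Slc1a2 and Slc1a3, the pair of transporters for the same substrate, thus differed in size of change in total RNA by the values given, and that gap was not tested.

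Glul did not pass the test in either fraction. Total RNA held 14445, 16082, 18371 and 19140 normalized read counts in wild-type and 19113, 15892, 28666 and 22513 in mutant cultures, and the groups overlapped, mutant culture 2 being the lowest of the mutant cultures. The difference was 0.32 in total RNA (95% interval -0.06 to 0.69, adjusted p = 0.154), which passed without mutant culture 2 (0.45, adjusted p = 0.0319), and 0.26 in polyribosomal RNA (95% interval -0.21 to 0.73, adjusted p = 0.392). In polyribosomal RNA mutant culture 3 held 89436 and the other mutant cultures 39021 to 49514, against 38444 to 49000 in wild-type cultures. Glul shares 116 exonic bases with Teddm2 on the other strand and 93 with Mir8114.

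Aldh1l1 (chromosome 6, 90550768 to 90599171, plus strand) had nearly equal levels in total RNA, 45366 to 54475 normalized read counts in wild-type and 43461 to 53604 in mutant cultures. The difference was -0.00 with a 95% interval from -0.22 to 0.21 (adjusted p = 0.989), so a rise of the size of Gfap's lies outside the interval. In polyribosomal RNA wild-type cultures held 136137, 130704, 151115 and 161323 and mutant cultures 140943, 121517, 123260 and 111910, and 3 of 4 mutant cultures were below the wild-type range. The difference of -0.22 did not pass (95% interval -0.46 to 0.02, adjusted p = 0.161). Aldh1l1 also overlaps the exons of an antisense gene, Gm15756, by 332 bases.

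The connexin and the growth factor receptor went the other way in polyribosomal RNA. Gja1 (chromosome 10, 56377300 to 56390419, plus strand) held 3138, 3045, 3317 and 2665 normalized read counts there in wild-type and 1519, 2207, 2043 and 2546 in mutant cultures, a mean of 3042 ± 275 against 2079 ± 428 (SD, n = 4). No mutant culture reached the wild-type range, and Gja1 fell by 0.57 (SE 0.16, adjusted p = 0.0258). In total RNA the values were 7717, 6165, 7217 and 6497 in wild-type and 5134, 5920, 7260 and 6764 in mutant cultures. The groups overlapped and the difference was -0.14 (95% interval -0.41 to 0.12, adjusted p = 0.347). The polyribosomal call was lost in 8 of 20 alternatives, with library-size scaling (adjusted p = 0.0834), without mutant cultures 1 and 3 (adjusted p = 0.137) and without any 1 of wild-type cultures 1, 2 and 3 and mutant culture 1 (adjusted p up to 0.0745).

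Fgfr3 (chromosome 5, 33721724 to 33737068, plus strand) held 3567, 3363, 5431 and 3329 normalized read counts in polyribosomal RNA of wild-type and 2023, 3060, 1960 and 1798 in mutant cultures. The highest mutant culture was under the lowest wild-type culture, and Fgfr3 fell by 0.83 (SE 0.20, adjusted p = 0.0134). Leaving out any 1 library kept the call (adjusted p up to 0.0396), also without wild-type culture 3, which was the highest. Without mutant cultures 1 and 3 the difference was -0.71 and the adjusted p 0.0955. In total RNA wild-type cultures held 4655, 3019, 3977 and 3797 and mutant cultures 3214, 4365, 3475 and 2760, with overlap and a difference of -0.16 (95% interval -0.52 to 0.19, adjusted p = 0.423). Fgfr3 shares 511 exonic bases with G630022F23Rik on the other strand.

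Gjb6 was near the floor of detection. Wild-type cultures held 2.01, 0, 0.836 and 0.521 normalized read counts in total RNA and mutant cultures 6.93, 2.59, 31.3 and 7.07. In polyribosomal RNA the value was 0 in 3 of 4 wild-type cultures and 0.729 in the other, and mutant cultures held 1.39, 0, 15.4 and 6.78. Mutant culture 3 was highest in both fractions. The wild-type values amount to at most a few reads each, so no fold is given for this connexin, and with no filter on low values its difference in total RNA had an adjusted p of 0.0185 and in polyribosomal RNA of 0.105.

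**Figure D3:**
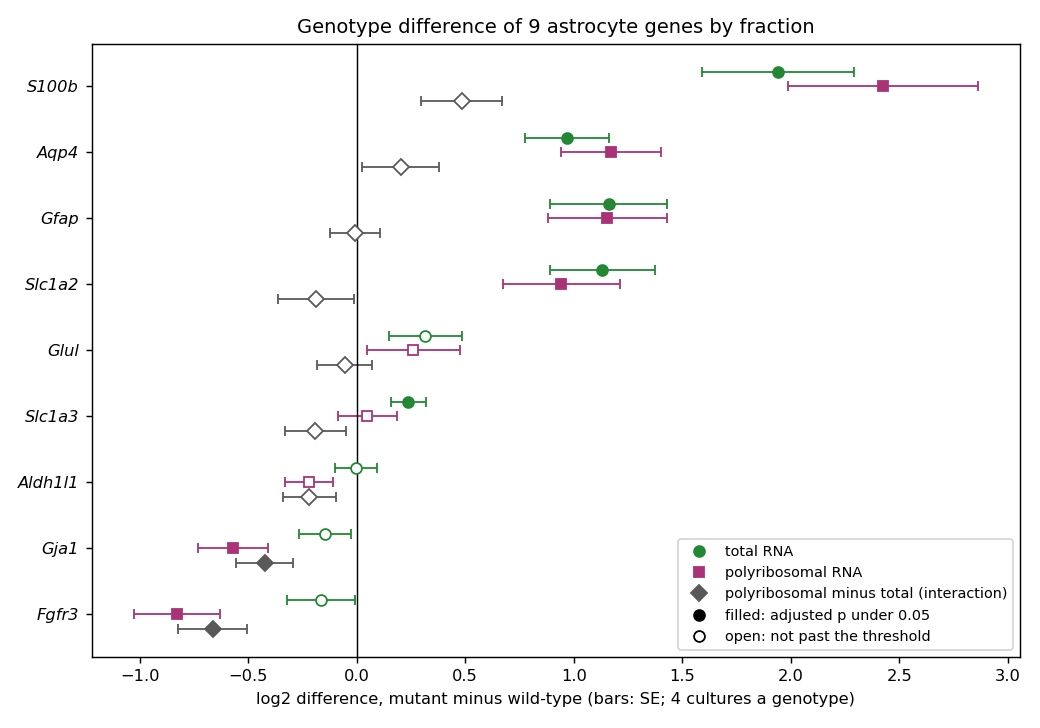
Difference between mutant and wild-type cultures (log2, with SE, 4 cultures a genotype) of the 9 tested genes in total RNA, in polyribosomal RNA, and as polyribosomal minus total. S100b, Aqp4, Gfap and Slc1a2 lie to the right in both fractions, Gja1 and Fgfr3 lie to the left in polyribosomal RNA, and those 2 are the ones whose polyribosomal minus total difference passes the threshold.

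Whether the genotype difference of a member depended on the fraction was tested as translational efficiency, the ratio of polyribosomal to total value in the same culture, by the interaction of genotype and fraction with culture as a block over all 16 libraries. Over the 14333 genes tested, 5.07% had a higher and 7.89% a lower efficiency in mutant cultures. Of the 9 members, 0 were higher by limma (1 at an unadjusted p under 0.05, S100b) and 2 were lower, Gja1 and Fgfr3. The Gja1 ratio was 0.407, 0.494, 0.460 and 0.410 in wild-type cultures 1 to 4 and 0.296, 0.373, 0.281 and 0.376 in mutant cultures 1 to 4, an interaction of -0.42 on the log2 scale (SE 0.13, adjusted p = 0.0423). The Fgfr3 ratio was 0.766, 1.11, 1.37 and 0.877 in wild-type and 0.629, 0.701, 0.564 and 0.651 in mutant cultures, an interaction of -0.66 (SE 0.16, adjusted p = 0.0143). For both genes all 4 mutant ratios were below all 4 wild-type ratios. The Gja1 call was lost in 11 of 20 alternatives (adjusted p up to 0.33) and the Fgfr3 call in 5 (adjusted p up to 0.254), both among them with limma without trend or robust moderation, where 0 of all genes were called and 3980 had an unadjusted p under 0.05.

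S100b had the opposite pattern without passing the test. Its ratio was 0.362 to 0.683 in wild-type and 0.750 to 0.874 in mutant cultures, with no overlap, and the interaction was 0.48 (SE 0.19, adjusted p = 0.0944). For Gfap the interaction was -0.01 (95% interval -0.25 to 0.24, adjusted p = 0.981). The other 5 members lay between -0.22 for Aldh1l1 and 0.20 for Aqp4, with adjusted p from 0.248 to 0.801.

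The members also differed in the ratio itself. The totals of both tables were set by separate scaling, so the ratio has no absolute meaning and only its order among genes is described. Total RNA was taken from the whole lysate before a spin. Detergent was added to the rest after that spin, and only the heaviest gradient fractions were kept. The order can therefore also carry what these steps keep or lose for each gene, and their part was not tested. In wild-type cultures the median ratio over all tested genes was 0.886, with quartiles of 0.549 and 1.51. Aldh1l1 (2.91 ± 0.33), Glul (2.62 ± 0.06) and Gfap (2.26 ± 0.18, SD, n = 4) stood at percentiles 97.9, 95.5 and 90.7 of all genes. Aqp4 (0.189 ± 0.022), Slc1a3 (0.311 ± 0.032), Gja1 (0.443 ± 0.042) and Slc1a2 (0.452 ± 0.115) stood at percentiles 0.977, 6.95, 16.4 and 17.2. The first 3 encode proteins of the cytosol and cytoskeleton, and the last 4 encode transporters and channels of the membrane. Fgfr3, a membrane receptor, was near the middle, at percentile 58.4. S100b, which encodes a calcium-binding protein and no transporter or channel, stood low, at percentile 28.5. The split therefore does not hold over all 9 genes. Each order is a description over 9 genes.

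**Figure D4:**
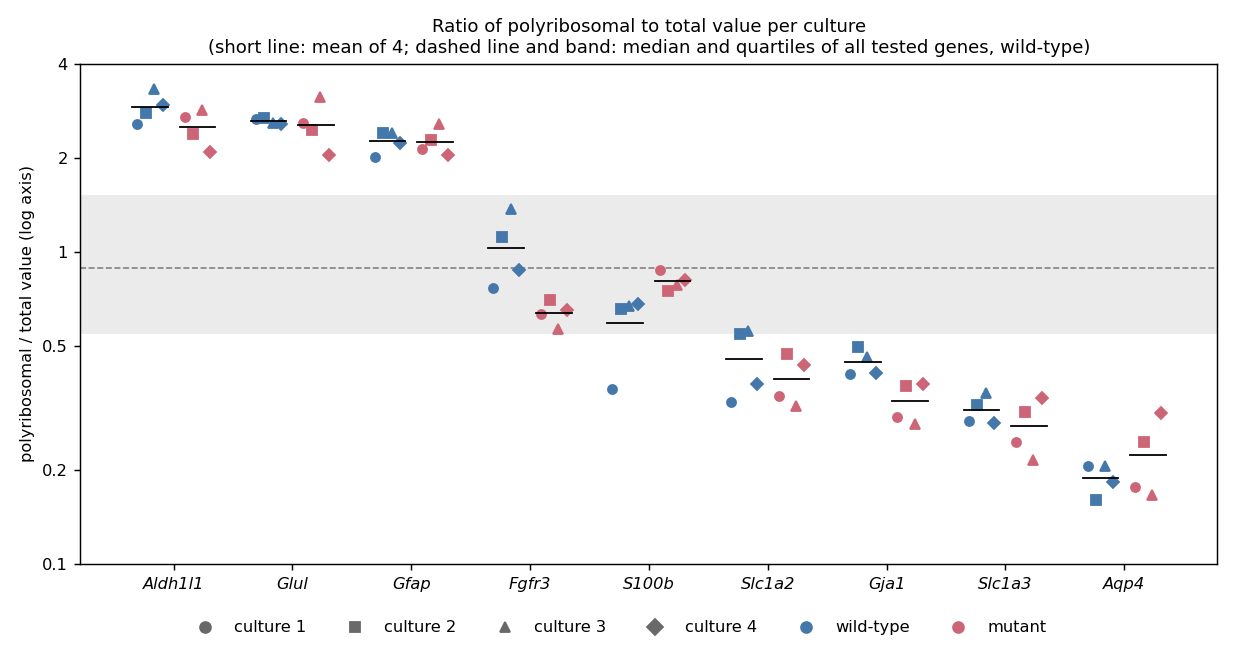
Ratio of polyribosomal to total value (log axis) for 9 genes in the 8 cultures, ordered by the wild-type mean, with the median and quartiles of all tested genes as dashed line and band. Aldh1l1, Glul and Gfap lie above the band, Slc1a2, Gja1, Slc1a3 and Aqp4 mostly below it, and all 4 mutant cultures lie below the wild-type cultures for Gja1 and Fgfr3.

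Per kb of the longest coding transcript, the highest levels in total RNA of wild-type cultures were those of Slc1a3 (13553 ± 450 normalized read counts per kb, SD, n = 4), Aldh1l1 (11985 ± 1076), Glul (6092 ± 769) and Gfap (5764 ± 1881). Glul and Gfap overlapped in their spread. Gja1 (2168 ± 220) and Fgfr3 (910 ± 158) followed, then Aqp4 (337 ± 10.8), S100b (292 ± 45.0) and Slc1a2 (197 ± 27.7), with Gjb6 last, and Aqp4 and S100b overlapped. In mutant cultures Gfap stood second at 12857 ± 4284 per kb, between Slc1a3 and Aldh1l1, and its spread covered both Aldh1l1 and Slc1a3. By the median transcript length it stood below Aldh1l1 there. In polyribosomal RNA Aldh1l1 was highest in wild-type cultures at 34687 ± 3349 per kb, above Glul (15928 ± 1707) and Gfap (12788 ± 3305). With the median transcript length the first 5 places in total RNA of wild-type cultures were the same, but Aqp4 and Slc1a2, which have much shorter transcripts beside the longest one, stood above Fgfr3 there and above Gja1 in mutant cultures.

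The 4 mutant cultures were not alike. Mutant culture 3 was the highest of the mutant cultures for 8 of the 10 genes in total RNA and for 5 in polyribosomal RNA. Mutant culture 2 was the lowest for 6 and 5. Summed over the 10 genes, total RNA held 0.197 to 0.221% of all normalized read counts in wild-type cultures and 0.261, 0.246, 0.340 and 0.279% in mutant cultures 1 to 4. Mutant culture 1 had a Y-linked level close to wild-type cultures 1 to 3, and there Gfap, Aqp4, S100b, Slc1a2 and Slc1a3 in total RNA were above, and Gja1 and Fgfr3 in polyribosomal RNA below, every wild-type culture. For these genes and fractions all 4 mutant cultures lay beyond every wild-type culture, so the position of culture 1 follows from which genes are named. It is 1 culture, carries no test and is no check on sex composition.

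Genes with the profile most like a member over the 16 libraries were ranked by the root mean square difference of log2 profiles centred on the table mean. For Gfap these were Naprt (0.183), Irx2 (0.187) and Gfra1 (0.190), where Gfap's own profile had a root mean square of 0.715. The nearest other member was Aqp4, at 0.379. For Gja1 they were Rhbdd1 (0.139), Foxn2 and Hlcs (both 0.153), beside an own root mean square of 0.279, and among the members Slc1a3 at 0.283 was nearest. The distance of Gja1 to the other tested members, 0.283 to 1.44, was in no case under its own root mean square.

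Other genes of astrocytes and of the members' pathways were taken from lists chosen with earlier results of these data known. The list counts below are to be read beside the shares of all genes. These were 19.7% higher and 20.7% lower in total RNA, 11.7% and 11.9% in polyribosomal RNA, and 5.07% and 7.89% in efficiency. Of 37 other astrocyte genes tested, 18 were higher and 5 lower in total RNA, with a median of 0.52, and 10 were higher and 3 lower in polyribosomal RNA. Clu, an extracellular chaperone, rose by 1.58 in both fractions (adjusted p = 0.0025 and 0.000962), and the receptor Gpr37l1 rose by 1.24 and 1.09. The genes of this list that fell in total RNA were Grin2c (-1.86), an NMDA receptor subunit, Fabp7 (-0.65), a fatty acid binding protein, Prodh (-0.62), Kcnj16 (-0.60) and the GABA transporter Slc6a11 (-0.53). Slc6a11 fell further in polyribosomal RNA (-1.31, adjusted p = 0.00578), with an interaction of -0.78 (adjusted p = 0.0102). In efficiency 6 of the 37 were lower. Without mutant cultures 1 and 3, 14 were higher and 1 lower in total RNA, and with the Y-linked covariate 7 were higher.

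Of 27 reactive astrocyte genes, those that rise in injured tissue, 16 were higher and 2 lower in total RNA and 14 higher and 1 lower in polyribosomal RNA, with medians of 0.97 and 1.07. Cp (ceruloplasmin) rose by 2.15 and 2.38 and Osmr (a cytokine receptor) by 1.71 and 1.75. Cxcl10, a chemokine, fell by 1.42 and 1.01, and B3gnt5 fell by 0.67 in total RNA. Several of these genes are also made by microglia, whose marker sum was high in mutant cultures 2 and 4, and the part of microglial RNA was not tested. In efficiency Lcn2 was higher (0.47) and Emp1 (-0.52), S1pr3 (-0.57) and Cd44 (-0.52) were lower. Without mutant cultures 1 and 3 the counts were 5 higher and 1 lower in each fraction. Without mutant culture 1 alone they were 10 and 1 in total RNA, and without mutant culture 3 alone 9 and 1.

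In the S100 family beside S100b, 5 of 9 tested genes were higher in total RNA, 8 of 9 in polyribosomal RNA and 4 of 9 in efficiency. S100a6 rose by 1.71 and 2.04, and S100a1 by 1.02 and 1.73 with an interaction of 0.72 (adjusted p = 0.0102). S100a16 and S100a13 had interactions of 0.51 and 0.55. S100b thus belonged to a family in which the polyribosomal difference was the larger one for each called gene, although its own interaction did not pass.

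Of 17 genes of glutamate uptake and the glutamine cycle, 8 were higher and 1 lower in total RNA, 4 higher and 3 lower in polyribosomal RNA, and 7 lower in efficiency. Slc38a3, a glutamine transporter of astrocytes, rose by 0.92 and 0.80. Atp1b2 rose by 1.58 and 0.81, with an interaction of -0.77 (adjusted p = 0.00787). Slc38a1, a glutamine transporter, fell by 0.79 in polyribosomal RNA. In total RNA it differed by -0.31 (adjusted p = 0.0531), with an interaction of -0.48 (adjusted p = 0.0254). Gls2, an enzyme of glutamine breakdown, fell by 0.78 in polyribosomal RNA and by 0.77 in total RNA.

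Around the water channel and the connexins, 11 of 23 genes were higher and 2 lower in total RNA, and 6 higher and 1 lower in polyribosomal RNA. The connexin Gjc3 rose by 2.55 and 2.18. It belongs to the oligodendrocyte lineage, 9 of whose 10 tested markers were higher in total RNA too, and their part was not tested. Hepacam, an endfoot adhesion protein, rose by 0.57 in total RNA. Gjc1 fell by 0.74 and 0.81, and Dtnb fell by 0.36 in total RNA. Dag1 (-0.87), Agrn (-0.77) and Kcnj10 (-0.58) were lower in efficiency.

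Genes of FGF and EGF receptor signalling, the list beside Fgfr3, were higher in 8 of 18 in total RNA, in 1 of 18 in polyribosomal RNA, and lower in efficiency in 4 of 18, with a median efficiency difference of -0.31 against 0.01 over all genes. Fgf1 rose by 1.53 and 1.44. Fgfr4 rose by 1.68 and Etv5 by 0.62 in total RNA, while in polyribosomal RNA the Fgfr4 difference of 1.24 had an adjusted p of 0.0546. Fgfr1, the paralogue of Fgfr3, was 0.35 higher in total RNA (adjusted p = 0.0343) and -0.26 in polyribosomal RNA (adjusted p = 0.114), with an interaction of -0.61 (adjusted p = 0.0113). Il17rd (-0.76), Dusp4 (-0.66) and Spred2 (-0.61, adjusted p = 0.0469) complete the 4. The cultures were grown in FGF-basic and EGF in both genotypes.

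Of 22 genes of gliogenic signalling, 6 were higher and 2 lower in total RNA, and 2 higher and 2 lower in polyribosomal RNA. Over all genes 19.7% were higher and 20.7% lower in total RNA, and 11.7% and 11.9% in polyribosomal RNA. Only the count of higher genes in total RNA was above its share. Hes5, a Notch target, fell by 1.95 and 1.61 and Hes1 by 0.36 in total RNA. Sox9 rose by 0.68 in total RNA and differed by 0.06 in polyribosomal RNA (adjusted p = 0.853), with an interaction of -0.61 (adjusted p = 0.0132). Nfix (-1.06) and Notch1 (-1.05) were lower in efficiency and Zbtb20 was higher (0.74). Zbtb20 and Jak2 rose in polyribosomal RNA by 0.94 and 0.46. The 8 calls in total RNA became 3 without mutant cultures 1 and 3, and 5 without any 1 of wild-type culture 2 and mutant cultures 1, 3 and 4, and the 4 in polyribosomal RNA became 1 without wild-type culture 2 or 3 and 2 without mutant culture 3.

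Of the 6 intermediate filament partners of GFAP, Synm rose by 1.15 and 0.85 and the others did not pass in either table. Vim, the most abundant of them, differed by 0.14 in total RNA (adjusted p = 0.237) and -0.03 in polyribosomal RNA (adjusted p = 0.867), and Plec was lower in efficiency (-0.84). The folate enzymes beside Aldh1l1 contrasted with it, since 9 of 11 were lower in total RNA and 6 of 11 in polyribosomal RNA. Mthfd2 fell by 1.20 and 1.15, Shmt1 by 0.98 and 0.79 and Tyms by 0.87 and 0.56. Aldh1l2, the mitochondrial paralogue of Aldh1l1, rose by 0.41 in total RNA. Several of these enzymes serve DNA synthesis. The DNA replication genes are a list made after the values were seen. They fell in 20 of 20 in total RNA and 15 of 20 in polyribosomal RNA, where 20.7% and 11.9% of all genes were lower. A link between them and the folate enzymes was not tested.

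The counts of these 9 lists depended on single cultures and on the Y-linked level. With that covariate, 0 to 7 genes of a list were called in total RNA and at most 1 in polyribosomal RNA. In polyribosomal RNA, the 7 calls of the glutamate list became 4 without wild-type culture 1 or mutant culture 3 and 3 without wild-type culture 2, the 7 of the water channel and connexin list became 4 without mutant culture 1 or 3, and the 8 of the S100 family became 5 without wild-type culture 3. The 1 call of the FGF and EGF list there became 2 without mutant culture 2 and 3 without mutant culture 3. The rise of Synm there was not called without any 1 of wild-type cultures 1 and 2 and mutant cultures 1 and 3, nor was Plec in efficiency without any 1 of wild-type cultures 2 and 3 and mutant cultures 1, 3 and 4. In efficiency, without any 1 of wild-type cultures 2 and 3 and mutant cultures 1 and 3, the 7 calls of the glutamate list became 1, the 3 of the water channel and connexin list became 1 and the 6 of the other astrocyte genes became 2 or 3. Those of the S100 family became 1 without wild-type culture 2 or mutant culture 1 and 2 without wild-type culture 3, and the 4 of the reactive list became 0 to 2 without any 1 culture other than wild-type culture 1 and mutant culture 2.

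**Figure D5:**
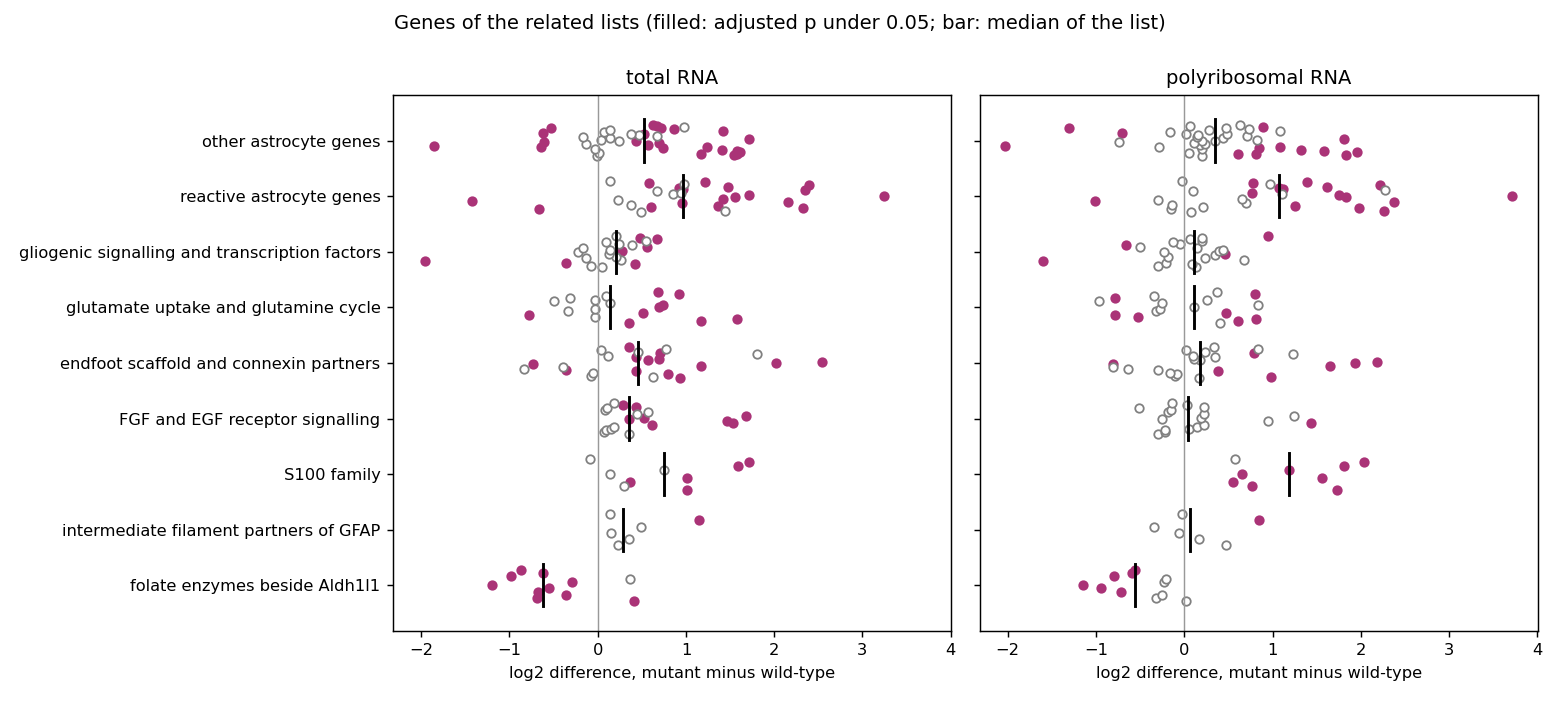
Difference between mutant and wild-type cultures (log2) of every tested gene in 9 related lists, in total RNA and in polyribosomal RNA, filled where the adjusted p was under 0.05, with the median of each list as a bar. Medians lie at 0.97 and 1.07 for reactive astrocyte genes, at 0.75 and 1.19 for the S100 family and at -0.62 and -0.56 for folate enzymes.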

How the data were processed

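Total and polyribosomal RNA of 4 wild-type and 4 mutant cultures were sequenced by the authors (poly(A) selection, paired ends, a kit that does not mark strand). The authors trimmed adapters, aligned with STAR to mm10 and normalized with DESeq2, each table apart. For the read counter and the annotation, the answer is not given in the sources used here. The deposited values were treated as a signal, normalized read counts that are not whole, so no count model was used. Of 24972 rows, 26 carried dates for names and were left out. Column totals were 65.6 to 73.7 M in total RNA (73.1 to 73.7 M in wild-type) and 87.4 to 101 M in polyribosomal RNA. Steps between low values put the depth at about 24.6 to 139 M and 52.0 to 266 M reads, but 62.9 to 91.4% of low values lay within 0.1 of a whole read, too few to recover counts.

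limma 3.58.1 (trend, robust) was fitted in R 4.3.3 to log2(value + 1) of genes with a mean of at least 10, per table by genotype, and for efficiency over both tables with culture as a block. It was tried on simulated data with known changes, drawn at the wild-type means and spread. The simulated libraries of a culture shared no effect, so that trial does not cover the culture block on libraries that deviate together. Total and polyribosomal libraries of a culture, linked by the number in their descriptions, deviated together (r 0.233 to 0.731). Promoters and gene models came from RefSeq and GENCODE on GRCm38, the build of mm10; all 10 symbols matched, and 9 had a promoter used here. The members and lists were chosen with earlier results of these data known. Named were all members, Tsc2, up to 3 genes per list and comparison with the smallest p and those against the direction of most called genes, and the 3 profiles nearest Gfap and Gja1. Spred2 (in efficiency), the fourth of 4 calls, and the total RNA and efficiency values of Slc38a1 were added after they were seen. Some genes of the lists are counted but not reported here by name. Alternatives were pseudocounts of 0.1 and 10, no filter or a mean of 50, library-size scaling, median centring, no trend, array weights, a Y-linked covariate and libraries left out. The last alternative was the replicate number as a block for each table, and no culture block for efficiency.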

Additional observations from a re-analysis of the deposited data

Results flagged for a closer look

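Of 40 groups of 4 libraries (10 genes, 2 fractions, 2 genotypes), 2 held a sample far from the others on the log2 scale, about the 1 in 20 that chance gives. In polyribosomal RNA of wild-type cultures, Fgfr3 was highest in culture 3, where the gap to the next culture was 0.859 of the whole range, and Gjb6 was above 0 in culture 3 and at 0 in the other 3 (a gap of 1, the whole range). Without wild-type culture 3 the fall of Fgfr3 in polyribosomal RNA was -0.66 and kept its call, and its interaction was -0.52 with an adjusted p of 0.0516.

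The genotype difference differed between the fractions, by the interaction test, for 2 members, Gja1 (-0.42) and Fgfr3 (-0.66), and for Tsc2 (-0.38, adjusted p = 0.0499). Among the named genes of the related lists it was lower in polyribosomal than in total RNA for Nfix (-1.06), Notch1 (-1.05), Dag1 (-0.87), Plec (-0.84), Slc6a11 (-0.78), Atp1b2 (-0.77), Agrn (-0.77), Il17rd (-0.76), Dusp4 (-0.66), Sox9 (-0.61), Fgfr1 (-0.61), Kcnj10 (-0.58), S1pr3 (-0.57), Emp1 (-0.52), Cd44 (-0.52) and Mthfd1l (-0.40). The same held for Spred2 (-0.61) and Slc38a1 (-0.48). The interaction was higher for Zbtb20 (0.74), S100a1 (0.72), S100a13 (0.55), S100a16 (0.51) and Lcn2 (0.47).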

How the results depend on the processing

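Each comparison was repeated under 20 alternatives, 8 of which leave out 1 library or culture. Members called in total RNA numbered 5 as reported, 0 with the Y-linked covariate and 3 without mutant cultures 1 and 3. In polyribosomal RNA they numbered 6, 0 with the covariate and 2 without mutant cultures 1 and 3. In translational efficiency they numbered 2, 1 with no filter, 1 with library-size scaling, and 0 to 2 when 1 culture was left out. By limma they numbered 0 without trend or robust moderation, with the covariate, without mutant cultures 1 and 3, and with no culture block. At an unadjusted p under 0.05 these settings gave, in that order, 3, 2, 3 and 1 members. Other alternatives gave counts within 1.5 times.

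Of all genes, 6035 were called in total RNA, 1063 with the covariate and 2296 without mutant cultures 1 and 3. In polyribosomal RNA 3403 were called, 5937 with array weights, 43 with the covariate, 5402 without mutant cultures 2 and 4, 1168 without 1 and 3, and 1884 to 4087 leaving out 1 library. In efficiency 1858 were called, 4340 with array weights, and 649 to 3282 leaving out 1 culture. By limma 0 were called without trend or robust moderation, with the covariate, without mutant cultures 1 and 3, and with no culture block. At an unadjusted p under 0.05 these settings gave, in that order, 3980, 2214, 3250 and 2221 genes. Library-size scaling moved the median of all genes by 0.10 in total and 0.12 in polyribosomal RNA, and the share of calls that were higher from 48.8 to 62.9% and from 49.7 to 73.5%.

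Same-numbered wild-type and mutant cultures did not deviate together (r -0.127 to 0.127). With the replicate block 4741 genes and 4 members were called in total RNA, and 2361 genes and 4 members in polyribosomal RNA. The members no longer called were Slc1a3 in total RNA (adjusted p = 0.0887) and Gfap (0.0554) and Gja1 (0.0545) in polyribosomal RNA.

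Values that changed sign were small and uncalled. Aldh1l1 in total RNA was 0.095 with library-size scaling, 0.0046 with median centring, 0.020 with array weights, 0.065 without mutant cultures 1 and 3, and -0.048 to 0.064 leaving out 1 library. Tsc2 there was 0.018 with the covariate. In polyribosomal RNA Slc1a3 was -0.090 with array weights, -0.082 with the covariate, -0.16 without mutant cultures 2 and 4 and -0.052 to 0.13 leaving out 1 library, and without mutant cultures 1 and 3 Glul was -0.067 and Des -0.23. In efficiency Gfap was 0.022 with library-size scaling, 0.051 without mutant cultures 2 and 4 and -0.069 to 0.040 leaving out 1 culture. Aqp4 was -0.13 and Glul 0.12 without mutant cultures 2 and 4, Slc1a2 0.036 and Slc1a3 0.056 without 1 and 3, and Glul 0.0031 with the covariate and -0.16 to 0.048 leaving out 1 culture. The causes were not tested. Having 4 cultures a genotype limits what small differences can show, and Gjb6 is limited by depth.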
